A study of Oryza sativa with 6 samples.

Results

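Heat shock proteins, heat shock factors and redox genes were examined in rice shoot apices, 71 genes of the 15140 that the array measured with a transcript cluster (a group of probes read as 1 transcript) paired with a single gene. They were taken by a rule on gene names, which was set with earlier results of these data known: a gene was taken when its symbol or a synonym in the rice gene reference was that of a heat shock protein (HSP), a heat shock factor (HSF) or an enzyme of one of the main redox families. This gave 22 heat shock genes (8 HSP and 14 HSF) and 49 redox genes (14 glutaredoxins, 13 thioredoxins, 6 ascorbate peroxidases, 5 glutathione transferases, 4 superoxide dismutases, 2 catalases, 2 class III peroxidases, 2 methionine sulfoxide reductases and 1 NADPH oxidase). The rule matches 122 genes of the reference, and the 51 without a cluster of their own were not analysed here. Where a gene had more than 1 cluster, its brightest cluster over all arrays represented it, and no filter on low values was applied.

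The groups were 3 samples of wild-type (WT) apices and 3 of dsl1, a dwarf rice mutant with slender leaves whose affected gene encodes a histone deacetylase. The apices held the shoot meristem and its youngest leaf primordia, and were dissected from soil-grown plants when the fifth leaf began to show. The sources used here name neither the rice cultivar nor the kind of dsl1 allele, nor do they say whether replicates came from separate plants. The p-values therefore reflect how far these samples spread, and that spread may be technical. Each sample was read on 1 single-colour array, giving log2 expression values. The number of arrays limits the precision. Because an apex holds several tissues, fewer cells of a type and less RNA per cell cannot be told apart.

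Small heat shock proteins hold unfolding proteins in solution, and HSP90 helps client proteins reach their active shape. Heat shock factors bind the promoters of such genes: class A factors mostly activate transcription, while class B and C factors lack the usual activation domain. Superoxide dismutases convert superoxide to hydrogen peroxide, which catalases and ascorbate peroxidases remove. Thioredoxins and glutaredoxins reduce disulfide bonds, glutathione transferases couple glutathione to other molecules, and NADPH oxidases make superoxide at the plasma membrane.

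None of the 71 genes passed the test between dsl1 and WT, a limma fit over all 54922 clusters with Benjamini-Hochberg adjustment at an adjusted p under 0.05. That test called 0.0255% of all clusters. Before adjustment, 9 of the 71 genes were higher in dsl1 with a p under 0.05, which is 12.7% against 9.46% of all genes measured, and 4 were lower, 5.63% against 5.52%. The largest differences were in the small heat shock protein HSP17.4, the heat shock factors HSFA4D and HSFB2C, the thioredoxin OsTrxh1 and the glutathione transferases GSTF2 and GSTZ5. For 58 of the 71 genes the 95% interval of the difference, taken gene by gene, lay within 1 of 0 on the log2 scale, which is a difference of less than 2-fold either way. The same count over all genes measured was not made, so it does not set these genes apart.

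HSP17.4 (LOC4332360), a cytosolic small heat shock protein, showed the largest difference of all 71 genes. Its log2 level was 5.09, 4.19 and 4.81 in WT replicates 1 to 3 and 5.98, 6.83 and 6.30 in the dsl1 replicates. Every dsl1 array thus lay above every WT array. The group means were 4.70 ± 0.462 and 6.37 ± 0.428 (SD, n = 3 each), a 3.19-fold higher level in dsl1 with a log2 difference of 1.67 (95% interval 0.97 to 2.38), yet the limma adjusted p was 0.208. With 1 array left out the difference was 1.42 to 1.87.

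The other small heat shock proteins showed smaller differences. HSP17.7 is separated from HSP17.4 by 1 gene on the chromosome. It is not among the genes singled out by the naming rule and is given here as its neighbour, chosen after its values were seen. HSP17.7 stood at 5.69, 5.30 and 5.42 in WT and 5.85, 5.42 and 5.71 in dsl1, so its groups overlapped, with a log2 difference of 0.19 (95% interval -0.21 to 0.59). The test of the difference between both genes was not made. HSP18.0 was at 7.37, 7.03 and 7.52 in WT and 7.82, 7.69 and 7.66 in dsl1, a log2 difference of 0.42 (SE 0.162, limma adjusted p = 0.397) with no overlap. Its second, dimmer cluster did not share this direction, at -0.060 with overlapping groups, so the arrays give no single answer for HSP18.0.

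HSP17.8 had the one heat shock cluster in which all dsl1 arrays lay below all WT arrays, by little: 6.53, 6.50 and 6.59 in WT against 6.34, 6.26 and 6.43 in dsl1 (difference -0.20, limma adjusted p = 0.559). HSP23.2, of the endoplasmic reticulum, differed by -0.14 and HSP18.9 by 0.24. Both clusters are among the dimmest of the array (HSP18.9 with a mean of 1.77 and HSP23.2 with 3.56), where a low level may be mostly background. HSP81-1, a cytosolic HSP90, stood at 5.77, 5.04 and 6.10 in WT and 6.25, 6.14 and 6.19 in dsl1. The dsl1 arrays of HSP81-1 lay close together and just above the highest WT array, with a log2 difference of 0.55 (95% interval -0.068 to 1.17, limma adjusted p = 0.467) that was 0.26 without WT replicate 2. Over the 8 HSP genes, 6 were higher and 2 lower, with a median log2 difference of 0.21.

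**Figure D1:**
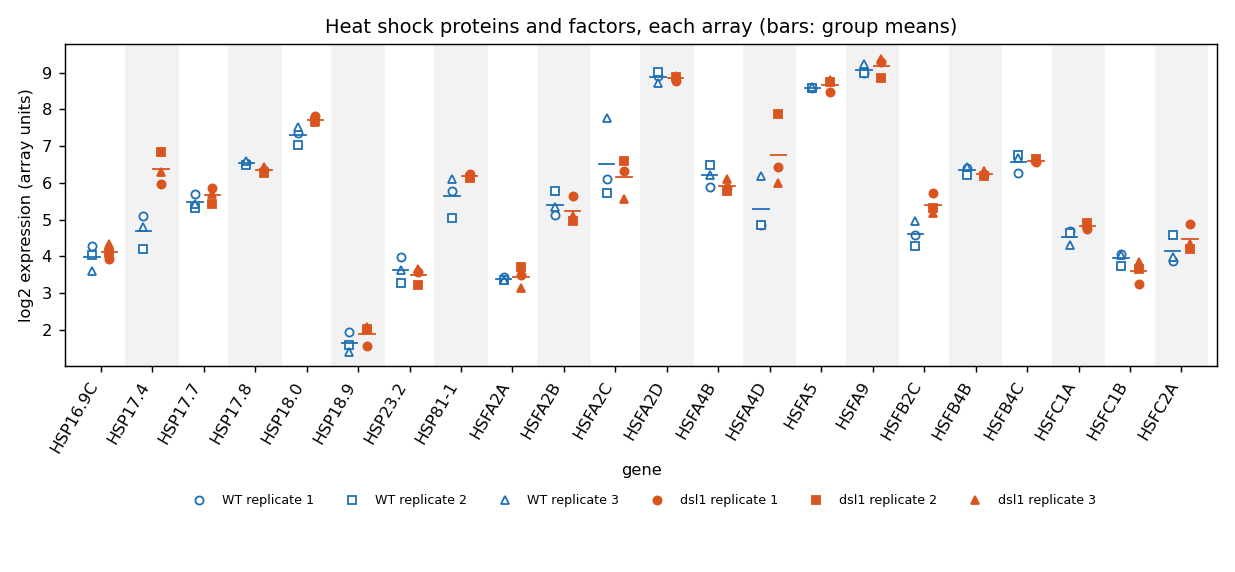
Log2 expression of the 22 heat shock genes on each array, with WT in open blue and dsl1 in filled orange symbols, a symbol shape for each replicate number and bars at the group means. HSP17.4 and HSFB2C separate the genotypes on every array, HSFA4D has a wide spread in both groups, and HSFA2C has 1 high WT array at 7.76.

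Among the heat shock factors, the class A factor HSFA4D (LOC4339409), known as SPL7 from a rice spotted-leaf mutant, had the largest difference and the widest spread. It was at 4.85, 4.85 and 6.18 in WT and 6.43, 7.87 and 6.004 in dsl1. WT replicate 3 lay above dsl1 replicate 3, so the groups overlapped. The means of HSFA4D were 5.30 ± 0.770 and 6.77 ± 0.975 (SD, n = 3 each), a log2 difference of 1.47 (95% interval 0.16 to 2.79, limma adjusted p = 0.391). The size rested on single arrays: HSFA4D differed by 1.92 without WT replicate 3 and by 0.92 without dsl1 replicate 2.

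HSFB2C, a class B factor, separated the genotypes more cleanly. Its levels were 4.57, 4.29 and 4.95 in WT and 5.72, 5.31 and 5.18 in dsl1. All dsl1 arrays lay above all WT arrays, with a 1.74-fold difference (log2 difference 0.80, SE 0.222, limma adjusted p = 0.309). The class C factor HSFC1A also did not overlap, at 4.68, 4.64 and 4.30 in WT and 4.73, 4.92 and 4.86 in dsl1, but the log2 difference was only 0.30 (limma adjusted p = 0.488). Its relatives HSFC2A and HSFC1B differed by 0.34 and -0.35 with overlapping groups. Without dsl1 replicate 1 these values were 0.13 and -0.19, and without WT replicate 2 that of HSFC2A was 0.56.

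The remaining class A factors gave no clear difference. HSFA2C, of the A2 class that in Arabidopsis sustains the heat response, was at 6.10, 5.72 and 7.76 in WT and 6.33, 6.59 and 5.56 in dsl1. A single WT array was far above the rest: the log2 difference of HSFA2C was -0.36 (95% interval -1.65 to 0.92) and turned to 0.26 without WT replicate 3. The reference lists an acireductone dioxygenase name beside HSFA2C and beside HSFA2D, and HSFA2C as a transcribed pseudogene, so these clusters may not read the factor alone. HSFA2D differed by -0.037, HSFA2B by -0.16, HSFA4B by -0.29 and HSFA9 by 0.10, and the class B factors HSFB4B and HSFB4C by -0.10 and 0.045. Over the 14 factors, 8 were higher and 6 lower, with a median log2 difference of 0.053.

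Taken as one list, 14 of the 22 heat shock genes were higher in dsl1 and 8 lower, with a median log2 difference of 0.090 against 0.019 over all 15140 genes. The 4 genes at an unadjusted p under 0.05 (HSP17.4, HSP18.0, HSFA4D and HSFB2C) were all higher. They are 18.2% of the list, against 9.46% of all genes higher at that threshold, while 0 of 22 were lower against 5.52% of all genes. The count of 4 was 2 without WT replicate 1, without WT replicate 2 or without dsl1 replicate 2, and the median was 0.037 without dsl1 replicate 3. All dsl1 arrays lay above all WT arrays for 5 of the 22 (22.7%, against 15.0% of all genes) and below for 1 (4.55%, against 9.33%). With this few genes, these shares are a description of the list only.

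**Figure D2:**
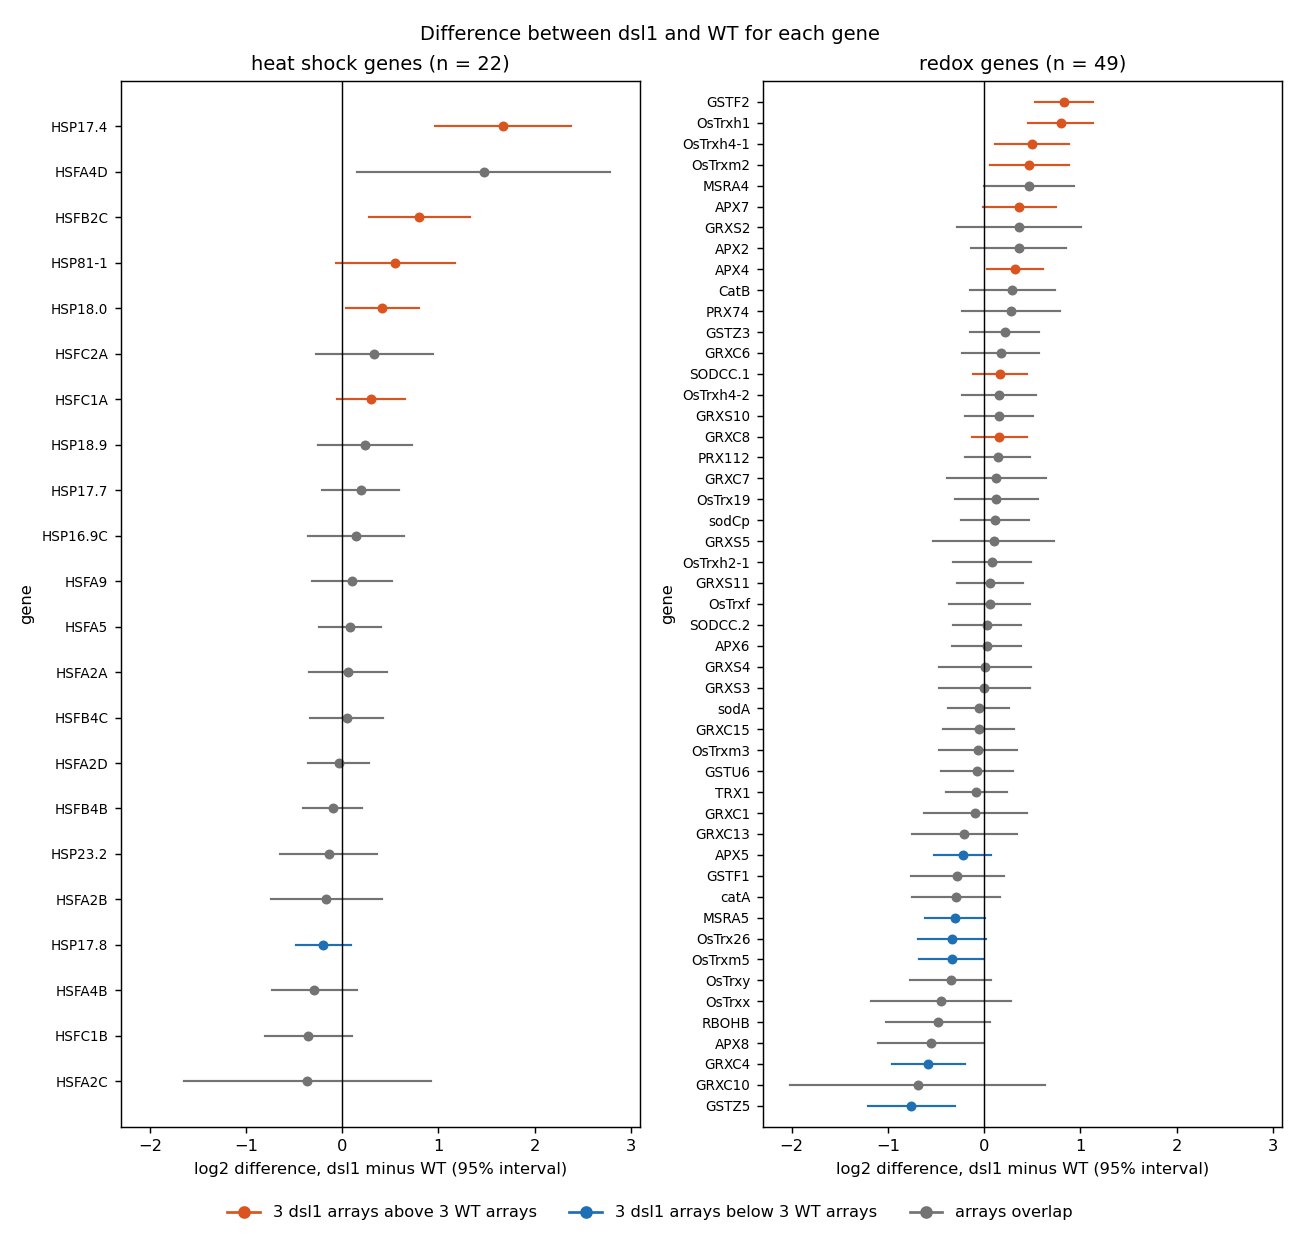
Log2 difference between dsl1 and WT for each of the 22 heat shock genes (left) and 49 redox genes (right), sorted by size, with 95% intervals from limma that are not adjusted for the number of genes. Orange marks genes whose 3 dsl1 arrays all lay above the WT arrays, blue those all below, and grey those that overlap. HSP17.4 at 1.67 and HSFA4D at 1.47 lie farthest from 0, and most redox genes lie within 0.5 of it.

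The redox genes were spread to both sides. The phi-class glutathione transferase GSTF2 (LOC4326887) had the smallest p of all 71 genes. It stood at 9.36, 9.32 and 9.34 in WT and at 10.29, 10.03 and 10.19 in dsl1, so the groups were well apart and the WT arrays nearly equal. The means of GSTF2 were 9.34 ± 0.0194 and 10.17 ± 0.131 (SD, n = 3 each), a 1.78-fold higher level (log2 difference 0.83, 95% interval 0.53 to 1.13) with a limma adjusted p of 0.162. When only the 15829 clusters with 1 gene entered the limma fit, its adjusted p was 0.0425, the one case in which any of the 71 genes passed. That fit called more clusters in general, 59 higher and 16 lower, against 8 and 6 in the fit of all 54922 clusters. Over its 16 alternatives the adjusted p of GSTF2 ran from 0.0425 to 0.42.

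A zeta-class glutathione transferase lay in the opposite direction. GSTZ5 was at 8.81, 8.45 and 8.38 in WT and 7.91, 7.49 and 7.97 in dsl1, with no overlap and a log2 difference of -0.76 (SE 0.19, limma adjusted p = 0.284), a 1.69-fold higher level in WT. The other 3 glutathione transferases overlapped between the groups. The family thus had 2 genes higher and 3 lower, with a median log2 difference of -0.072.

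OsTrxh1, an h-type thioredoxin known from rice phloem sap, also separated the genotypes. Its levels were 8.07, 8.03 and 7.88 in WT and 8.66, 8.99 and 8.71 in dsl1. All dsl1 arrays lay above all WT arrays, with a 1.73-fold difference (log2 difference 0.79, 95% interval 0.46 to 1.13, limma adjusted p = 0.21). A further h-type gene, OsTrxh4-1, was at 4.56, 4.59 and 4.51 in WT and 4.75, 5.17 and 5.24 in dsl1, again without overlap (difference 0.50, adjusted p = 0.351). The remaining h-type genes OsTrxh2-1 and OsTrxh4-2, chosen after their values were seen, differed by 0.077 and 0.16 with overlapping groups.

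Thioredoxins of the chloroplast types m, f, x and y differed in sign. OsTrxm2 was at 9.32, 9.44 and 9.003 in WT and 9.96, 9.62 and 9.59 in dsl1, above WT on every array (log2 difference 0.47, limma adjusted p = 0.387). OsTrxm5 lay on the other side, at 10.36, 10.44 and 10.27 in WT and 10.05, 9.83 and 10.18 in dsl1, below WT on every array (difference -0.34, limma adjusted p = 0.423). OsTrxy differed by -0.35 with an overlap and OsTrxf by 0.059. OsTrxx and OsTrxm3, chosen after their values were seen, differed by -0.45 and -0.066 with overlapping groups. OsTrx26, also listed as TDX, a thioredoxin with tetratricopeptide repeats, was at 6.80, 6.36 and 6.54 in WT and 6.23, 6.21 and 6.26 in dsl1, a small but non-overlapping difference of -0.34 (limma adjusted p = 0.443). Of the 13 thioredoxin symbols, 7 were higher and 6 lower. One of them, TRX1, is a namesake: it is a trithorax-like histone methyltransferase and no thioredoxin, and it differed by -0.081. Without TRX1, a choice made after the data were seen, the redox median was 0.059 as before.

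The glutaredoxins had a median log2 difference of 0.035, with 9 of 14 higher and 5 lower. GRXC4 was the 1 glutaredoxin at an unadjusted p under 0.05, which is 7.14% of the 14 against 5.52% of all genes lower. GRXC4 was at 5.93, 5.73 and 6.20 in WT and 5.42, 5.45 and 5.25 in dsl1. All its dsl1 arrays lay below the WT arrays, with a log2 difference of -0.58 (SE 0.16, limma adjusted p = 0.307). GRXC8 did not overlap either, though its log2 difference was just 0.15. GRXC10, chosen after its values were seen, had a wider gap between its means, -0.69, but its WT arrays alone ran from 3.89 to 6.22, which covers its dsl1 arrays.

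**Figure D3:**
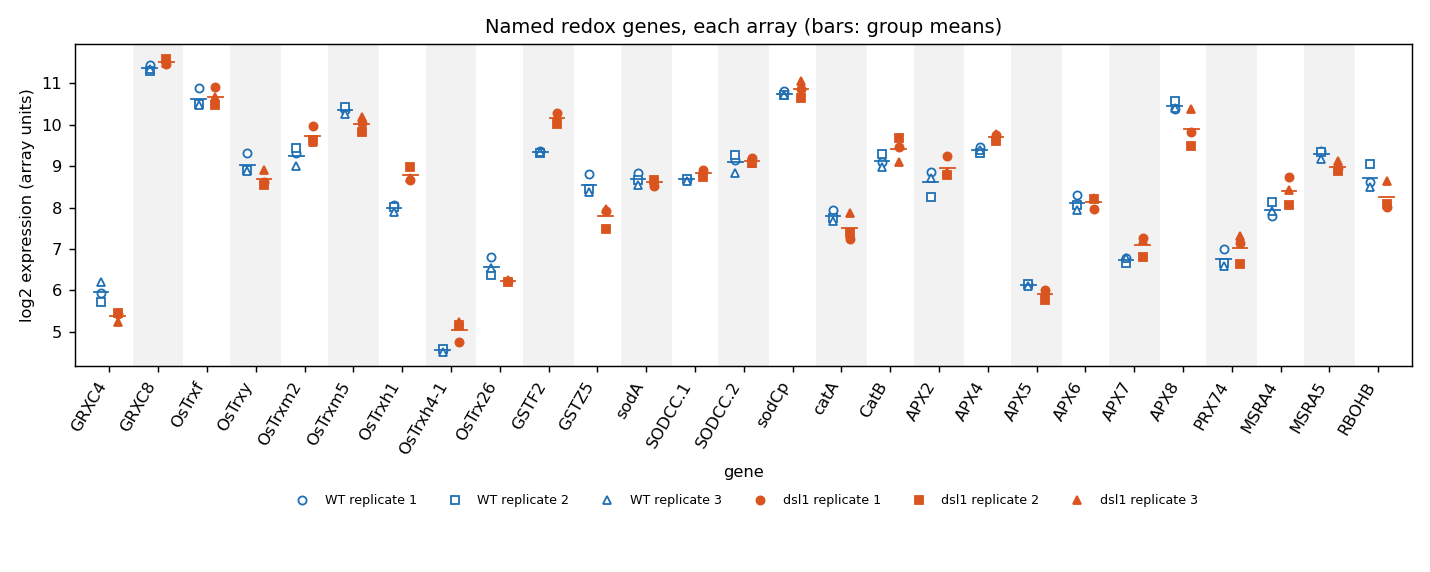
Log2 expression on each array of the 27 redox genes that the naming rule took, drawn as in the plot of heat shock genes. GSTF2 and OsTrxh1 show the widest clear gaps upward and GSTZ5 and GRXC4 downward, while the superoxide dismutases and catalases show little or none.

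None of the superoxide dismutases and catalases was at an unadjusted p under 0.05, while 1 ascorbate peroxidase in each direction was, APX4 higher and APX8 lower. That is 16.7% of the 6 ascorbate peroxidases each way, against 9.46% of all genes higher and 5.52% lower. The superoxide dismutases differed by -0.057 for the mitochondrial manganese enzyme sodA, 0.17 for SODCC.1 and 0.032 for SODCC.2, both cytosolic copper-zinc enzymes, and 0.11 for the plastid copper-zinc enzyme sodCp. The 95% interval of sodA ran from -0.37 to 0.26, but a second, dimmer sodA cluster differed by 0.30, so the arrays give no single answer for it. The interval of sodCp ran from -0.24 to 0.46, and its difference was 0.0081 without dsl1 replicate 3 and 0.22 without dsl1 replicate 2. SODCC.1 was at 8.69, 8.70 and 8.65 in WT and 8.90, 8.75 and 8.89 in dsl1, without overlap (limma adjusted p = 0.619). The catalases had opposite signs, catA at -0.29 (95% interval -0.75 to 0.16) and CatB at 0.29 (95% interval -0.15 to 0.73), both with overlapping groups. Single arrays moved both: catA differed by -0.16 without dsl1 replicate 1 and by -0.48 without dsl1 replicate 3, and CatB by 0.16 without dsl1 replicate 2 and by 0.45 without dsl1 replicate 3.

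The ascorbate peroxidases had 4 genes higher and 2 lower. APX4, a peroxisomal form, was at 9.47, 9.32 and 9.39 in WT and 9.75, 9.62 and 9.78 in dsl1, above WT on every array (log2 difference 0.32, SE 0.123, limma adjusted p = 0.394). APX7 and APX8, both chloroplast forms, differed in opposite directions. APX7 was at 6.78, 6.66 and 6.77 in WT and 7.27, 6.82 and 7.23 in dsl1, without overlap (difference 0.37, limma adjusted p = 0.437). APX8 was at 10.38, 10.58 and 10.40 in WT and 9.83, 9.49 and 10.39 in dsl1. The dsl1 replicate 3 array of APX8 lay within the WT range, and the difference was -0.55 (95% interval -1.10 to -0.0011, limma adjusted p = 0.424).

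The neighbouring genes APX5 and APX6 were also unlike each other in value. APX5 was at 6.15, 6.15 and 6.11 in WT and 6.01, 5.76 and 5.98 in dsl1, below WT on every array (difference -0.22, limma adjusted p = 0.529). APX6 differed by 0.027, which turned to -0.016 on quantile normalisation. The cytosolic form APX2 differed by 0.36 (limma adjusted p = 0.539) with 1 WT array inside the dsl1 range.

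The repair and oxidase genes were likewise mixed. MSRA4 and MSRA5, which reduce oxidised methionine in proteins, lay on opposite sides. MSRA4 was at 7.79, 8.13 and 7.93 in WT and 8.73, 8.07 and 8.43 in dsl1, a log2 difference of 0.46 (limma adjusted p = 0.429) with dsl1 replicate 2 inside the WT range. MSRA5 was at 9.36, 9.35 and 9.17 in WT and 8.95, 8.89 and 9.13 in dsl1, below WT on every array (difference -0.30, limma adjusted p = 0.44). RBOHB, an NADPH oxidase, stood at 8.61, 9.06 and 8.51 in WT and 8.01, 8.08 and 8.64 in dsl1, a difference of -0.48 (limma adjusted p = 0.468) with dsl1 replicate 3 inside the WT range. PRX74, a secreted type of peroxidase, differed by 0.28 with overlapping groups.

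In all, 29 of the 49 redox genes were higher in dsl1 and 20 lower, with a median log2 difference of 0.059 against 0.019 over all genes. The redox median was 0.012 without WT replicate 3, 0.019 without dsl1 replicate 1 or dsl1 replicate 3, and 0.013 on quantile normalisation. At an unadjusted p under 0.05, 5 were higher (10.2%, against 9.46% of all genes) and 4 lower (8.16%, against 5.52%). All dsl1 arrays lay above all WT arrays for 8 (16.3%, against 15.0%) and below for 6 (12.2%, against 9.33%). The share of higher genes is near that of the array as a whole. The count of 5 was 3 without WT replicate 3 or without dsl1 replicate 1. The count of 4 was 2 without WT replicate 1 or without dsl1 replicate 1, and 8 without dsl1 replicate 3.

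**Figure D4:**
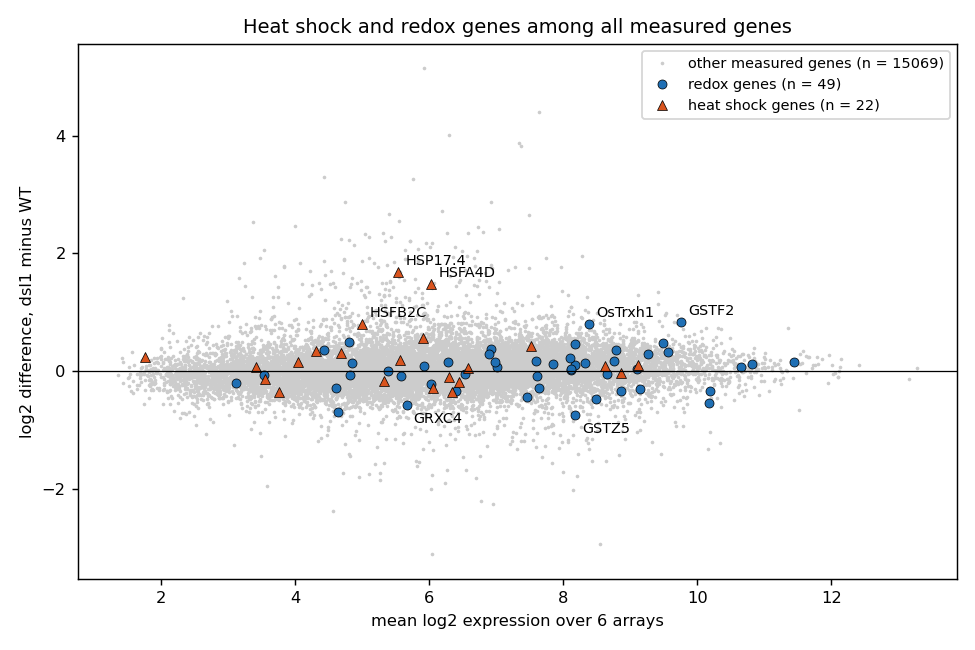
Log2 difference between dsl1 and WT against the mean log2 level over 6 arrays, for the heat shock genes (orange triangles), the redox genes (blue circles) and all other measured genes (grey points). HSP17.4 at 1.67, HSFA4D at 1.47 and HSFB2C at 0.80 lie above the dense band around 0, with grey points above them up to 5.14, and most redox genes lie inside the band.

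Genes of the same pathways outside these families were read from 3 further lists. Of 30 other chaperones and folding factors, none passed in limma; before adjustment 3 were higher with a p under 0.05, or 10% against 9.46% of all genes, and 1 was lower, or 3.33% against 5.52%. In this list 19 were higher and 11 lower, with a median log2 difference of 0.092. Of these 30, 6 were matched by a symbol that resembles that of the chaperone BiP but belongs to other proteins, and without them the median was 0.11. ERDJ3A, a partner of BiP in the endoplasmic reticulum, was at 4.57, 5.004 and 4.48 in WT and 6.49, 5.19 and 6.18 in dsl1, without overlap (difference 1.27, limma adjusted p = 0.302). The disulfide isomerase-like gene OsPDIL5-4 differed by 0.41 (limma adjusted p = 0.371). CLPC3, of the Clp chaperone family, was at 3.97, 4.05 and 4.05 in WT and 3.69, 3.79 and 3.69 in dsl1 (difference -0.30, limma adjusted p = 0.403).

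Of 12 genes taken by symbol alone as other redox enzymes, 5 were higher and 7 lower, with a median log2 difference of -0.048. None passed in limma, and 1 in each direction was at an unadjusted p under 0.05. That is 8.33% each, against 9.46% of all genes higher and 5.52% lower. AOX1, the mitochondrial alternative oxidase, was at 5.78, 5.11 and 7.03 in WT and 7.30, 7.91 and 7.34 in dsl1. The groups did not overlap although WT replicate 3 came close to dsl1, and the log2 difference was 1.54 (95% interval 0.44 to 2.64, limma adjusted p = 0.332). The type II peroxiredoxin PRXIIE-2 differed by -0.58 (limma adjusted p = 0.403) and the glyoxalase GLYI-11 by 0.26 (limma adjusted p = 0.499). Of 7 heat or stress regulators, 6 were higher and 1 lower, none of them at an unadjusted p under 0.05. TGA2.2 differed by 0.46, BZIP60 by 0.41 and DREB2C by -0.24. TGA2.2 is a bZIP factor whose place in this list rests on a synonym in the reference alone.

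Single arrays stood out in several of these genes. WT replicate 3 was the highest WT array for HSFA4D, HSFA2C, HSFB2C, HSP81-1, AOX1 and BZIP60, and WT replicate 2 the lowest WT array for HSP17.4, HSP18.0, HSFB2C, HSP81-1 and AOX1. The mean level of the 7 small heat shock proteins was 4.98, 4.56 and 4.71 in WT and 5.01, 5.08 and 5.17 in dsl1. WT replicate 1 thus nearly reached dsl1. This mean includes HSP17.4, whose log2 difference of 1.67 far exceeded the next largest, 0.42 for HSP18.0. The median difference of the 7 was 0.19, with 5 higher and 2 lower. A mean without HSP17.4 was not taken, so the gap cannot be read as a shift of the family. For the 14 factors the means were 5.84, 5.93 and 6.13 in WT and 6.12, 6.16 and 6.01 in dsl1, which overlap. For the 49 redox genes they were 7.54, 7.53 and 7.40 in WT and 7.53, 7.39 and 7.59 in dsl1, with no separation.

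Marker genes of the tissues in the apex were set beside these values. The 3 meristem genes OSH1, OSH15 and OSH71 had a mean log2 level per array of 4.76 to 5.01 in WT and 4.88 to 5.40 in dsl1. All 3 had higher means in dsl1 and none passed in limma. At an unadjusted p under 0.05, 2 of the 3 were higher, OSH15 and OSH71, or 66.7% against 9.46% of all genes. The groups of OSH71 overlapped, and a share of 3 genes is a description only. Of the 10 leaf primordium genes, 4 were higher and 6 lower, with 1 of them higher at an unadjusted p under 0.05, and summed levels on the linear scale of 1779 to 1916 in WT and 1744 to 1927 in dsl1. Of 8 greening leaf genes, 2 were higher and 6 lower. None was at an unadjusted p under 0.05, against 9.46% of all genes higher and 5.52% lower. The summed levels of these 8 were 5589 to 6394 in WT and 4619 to 5921 in dsl1, lowest in dsl1 replicate 2. The ascorbate peroxidases APX7 and APX8, sodCp and the thioredoxins of types m, f, x and y were set beside this, but other chloroplast genes were not. The dsl1 replicate 2 array also had the lowest level of APX8, sodCp, OsTrxf, OsTrxm3, OsTrxm5, OsTrxx and OsTrxy. For OsTrxf and OsTrxm3 this was by little, 10.47 against 10.48 in WT replicate 3 and 4.64 against 4.65 in WT replicate 1. APX7 and OsTrxm2 were lowest in a WT array. The mean of all 49 redox genes was also lowest in dsl1 replicate 2, at 7.39 against 7.40 in WT replicate 3. Of the other named redox genes, GSTZ5 and OsTrx26 were lowest there too, while GSTF2 and OsTrxh1 were lowest in a WT array. The share of all redox genes lowest in dsl1 replicate 2 was not taken, so the pattern cannot be called particular to chloroplast genes. The part of tissue makeup in the differences above was not tested.

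**Figure D5:**
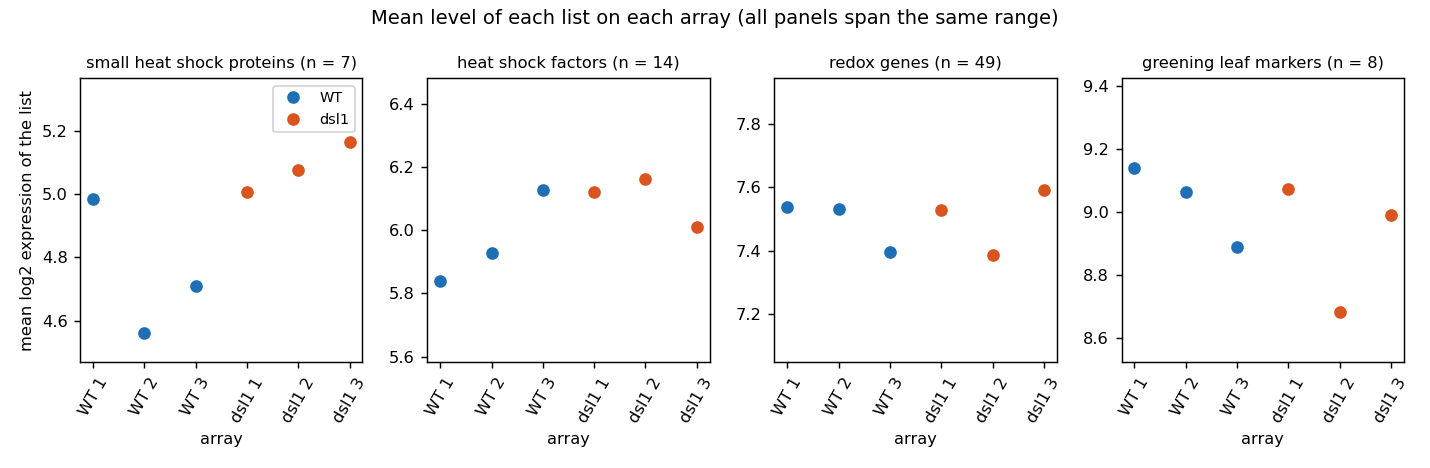
Mean log2 level on each array of the small heat shock proteins, the heat shock factors, the redox genes and the greening leaf markers, with WT in blue and dsl1 in orange and all panels spanning the same range. The small heat shock proteins lie at 4.56 to 4.98 in WT and 5.01 to 5.17 in dsl1, a mean that includes HSP17.4 with its difference of 1.67. The redox genes overlap fully and the greening leaf markers are lowest in dsl1 replicate 2.

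A second cluster was at hand for 4 of the 71 genes. That of HSP17.7 was dimmer and differed by 0.15, close to the 0.19 of the brighter one. That of sodA lay far dimmer, at 3.78 on average, and differed by 0.30, opposite in sign to the -0.057 of the brighter cluster. The 2 clusters of GRXC1 held the same values on every array and count as 1 measurement.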

How the data were processed

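Total RNA from 3 WT and 3 dsl1 shoot apex samples was labelled with biotin and hybridised to whole-transcript arrays, 1 array a sample. The values are the authors' deposited log2 expression values for 54922 clusters. Per the submitters' processing notes, the software was Affymetrix Expression Console 1.3. The sources used here do not state the background correction, normalisation, summarisation or genome build. Array medians were 5.30 to 5.40, and the values were not rescaled. Correlations between arrays were 0.9704 to 0.9806 within genotypes and 0.9621 to 0.978 between them.

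Gene names came from the platform's annotation, in which 15829 clusters have 1 gene and 440 have several. All 15829 matched the rice gene reference by gene identifier. It served for names and gene order only. The members, gene lists and naming rule were chosen with earlier results of these data known.

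All clusters were compared between genotypes by lmFit and eBayes of limma 3.58.1 (R 4.3.3), 2-sided and with no block, checked on simulated data. The naming rule took members called over all clusters, the 8 with the smallest p in each direction among heat shock and among redox genes, the member with the highest mean in each family of at least 2, and every catalase, superoxide dismutase and ascorbate peroxidase. This gave 45 genes. Up to 3 pathway genes were named per list by the smallest p. Promoter motifs and sequences were not analysed here.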

Additional observations from a re-analysis of the deposited data

How the results depend on the processing

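The alternatives changed the scaling (quantile normalisation, or centring on medians), the clusters fitted (no dimmest 33.3%, where 6 heat shock and 3 redox genes dropped out; one-gene clusters only; no rows above the first gene-paired cluster, 7793 in all), the variance model (a trend, robust estimation, or weights per array), the samples (each array left out, or a replicate block), the value per gene (the mean of its clusters), the call rule (a log2 difference of at least 1) and, chosen after seeing the data, the redox list (without TRX1). No heat shock gene passed under any of them, and 1 redox gene, GSTF2, passed in the fit of one-gene clusters (adjusted p = 0.0425). Over all clusters 8 were called higher and 6 lower. These counts were 59 and 16 among one-gene clusters, 36 and 16 without the leading rows, and 0 to 4 in each direction with 1 array left out. With the replicate block, 1 cluster was higher and 0 lower, and 2 heat shock genes were higher and 2 redox genes lower at an unadjusted p under 0.05. Same-numbered arrays deviated from their group means with correlations of -0.125 to -0.052, and differently numbered ones with correlations of -0.147 to 0.198. The same-numbered arrays thus showed no shared deviation. With 3 arrays a group, this cannot tell whether samples were paired when collected.

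At an unadjusted p under 0.05 the 4 lower redox genes became 2 on median centring and 2 with the robust prior. With 1 array left out, 2 to 5 heat shock genes were higher and 0 to 1 lower, and 3 to 7 redox genes higher and 2 to 8 lower. The heat shock median then ran from 0.037 to 0.11 and the redox median from 0.012 to 0.068. Of 716 alternative values of the 45 named genes, 697 kept side and direction, 1 gained the threshold and 18 changed sign, in 10 genes with small or uneven differences. APX6 turned to -0.016 on quantile normalisation, and sodA to 0.12 as the mean of its clusters. With 1 array left out the differences ran from -0.31 to 0.034 for HSP23.2, -0.37 to 0.016 for HSFA2B, -0.77 to 0.26 for HSFA2C, -0.12 to 0.025 for HSFA2D, -0.0019 to 0.26 for HSFA9, -0.11 to 0.14 for HSFB4C, -0.053 to 0.19 for OsTrxf, -0.13 to 0.019 for sodA, -0.089 to 0.12 for SODCC.2 and -0.053 to 0.13 for APX6. The cause was not tested. None of the 174 alternative values of the 11 pathway genes followed changed sign or passed.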

Other observations

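Genes of protein folding in the endoplasmic reticulum, chosen here after their values were seen, differed in both directions. In the list of 30 chaperones and folding factors that holds them, 19 were higher and 11 lower. Without the symbols that resemble BiP but belong to other proteins, 16 of 24 were higher and 8 lower. The list was not limited to that compartment. BIP1, the HSP70-type chaperone of that compartment, was at 8.69, 7.91 and 8.69 in WT and 9.20, 8.73 and 9.03 in dsl1. The lowest dsl1 array lay just above the highest WT array, with a log2 difference of 0.56 (95% interval -0.033 to 1.15, limma adjusted p = 0.448). ERDJ3B, a co-chaperone of BiP, was at 8.36, 7.78 and 8.51 in WT and 9.04, 8.58 and 8.74 in dsl1, a difference of 0.58 (limma adjusted p = 0.403), also without overlap. WT replicate 2 was the lowest array for both, and without it the differences were 0.30 and 0.36. On the lower side were the disulfide isomerase-like genes OsPDIL1-3, at 3.95, 4.06 and 4.03 in WT and 3.83, 3.12 and 3.75 in dsl1 (difference -0.45, limma adjusted p = 0.458, no overlap), and OsPDIL1-2, with a difference of -0.43 (limma adjusted p = 0.496). The cluster of OsPDIL1-3 was dim, with a mean of 3.79 over all arrays. BIP2, BIP3 and OsPDIL1-4 differed by -0.15, -0.10 and -0.092 with overlapping groups. Higher in dsl1, also with overlapping groups, were OsPDIL2-3 by 0.42, ERDJ7 by 0.32 and OsPDIL2-2 by 0.14. None of these genes passed the test.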
